A study of Mus musculus with 53 samples.

Results

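Collagens are proteins of the extracellular matrix in which chains wind around each other into a triple helix. Fibrillar collagens assemble into the fibrils that give tissue its tensile strength, and in injured liver they are laid down as scar, mainly by activated hepatic stellate cells. Type IV collagens form the sheet-like network of basement membranes, which in healthy liver is sparse along the sinusoids, and the remaining collagens bead, link, coat or anchor these structures. The collagen genes were taken as every gene whose symbol is Col, a number, a and a number, and 41 such genes were named on the array. Of these, 31 passed a detection rule (detection score over 0.95 on at least 3 arrays of any of the 5 groups), against 12637 of all 19038 named genes. Each gene was read with the probe of highest mean signal.

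RNA was hybridised to Illumina mouse bead arrays, 52 of which were used here. Liver tumors came from mice of genotype Mad2f/f p53f/f Alb-Cre+ (21 labelled, 20 with a signal, from 15 animals) and Mad2f/f p53f/+ Alb-Cre+ (8 tumors from 5 animals), where Alb-Cre deletes floxed sequence in hepatocytes. T-ALLs (n = 9), T-cell acute lymphoblastic leukemias, came from Mad2f/f p53f/f Lck-Cre+ mice, where Lck-Cre acts in developing T cells, and the controls were 10 healthy livers and 5 healthy thymi of wild-type mice. Mad2 (Mad2l1) is a spindle assembly checkpoint gene and p53 is Trp53. Tumors and controls carried a mixed B6-129Sv background, ages are not given in the labels, and the thymi were shared with an earlier study. Of the 20 tumor-bearing animals with liver arrays, 8 gave 2 tumors each. Values are log2 signals after background correction, quantile normalized over all 52 arrays, so that a probe can be compared between the 5 groups. Levels of different probes cannot be set against each other.

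Several arrays stood apart. T-ALL 5 was nearly blank, with 4.56% of probes detected, whereas the group medians lay between 33.1% and 38.1%. Signals were low on T-ALL 4 and on liver tumor 13, and T-ALL 7 ranked its probes unlike the log2 values deposited under its label (rank correlation 0.786). The mean over 8 hepatocyte markers was 8.94 in healthy liver 1, against 11.54 at the median of the healthy livers. Liver tumor 12 had no signal column and entered only an alternative run on the deposited log2 values. The Mad2l1 probe, whose place relative to the floxed exons is not known here, read 5.06 to 6.48 in T-ALL and 9.99 to 10.39 in thymus, and 5.72 to 9.20 in liver tumors against 4.79 to 7.46 in healthy liver. Values without healthy liver 1, T-ALL 4 or T-ALL 5 are given where a call rests on them.

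Collagens differed first in where they were detected. All 6 basement membrane genes (Col4a1 to Col4a6) passed, as did 8 of 11 fibrillar and 17 of 24 other collagens. Probes for Col1a1, Col5a1, Col27a1, Col4a1, Col4a2, Col6a1, Col6a2, Col14a1, Col15a1, Col16a1 and Col18a1 passed in each of the 5 groups. Another 11 genes passed through a single group: Col3a1, Col4a3, Col4a4, Col6a5 and Col26a1 through p53 f/f tumors, Col22a1, Col23a1 and Col9a2 through thymus, Col9a1 through healthy liver, Col28a1 through T-ALL, and Col4a5 through p53 f/f tumors. For these 11 a difference from the remaining groups was partly built into the choice, so their counts carry no weight. Col5a2, Col5a3, Col24a1, Col6a4, Col6a6, Col8a2, Col9a3, Col10a1, Col13a1 and Col19a1 did not pass, each being detected on at most 2 arrays of any group.

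**Figure D1:**
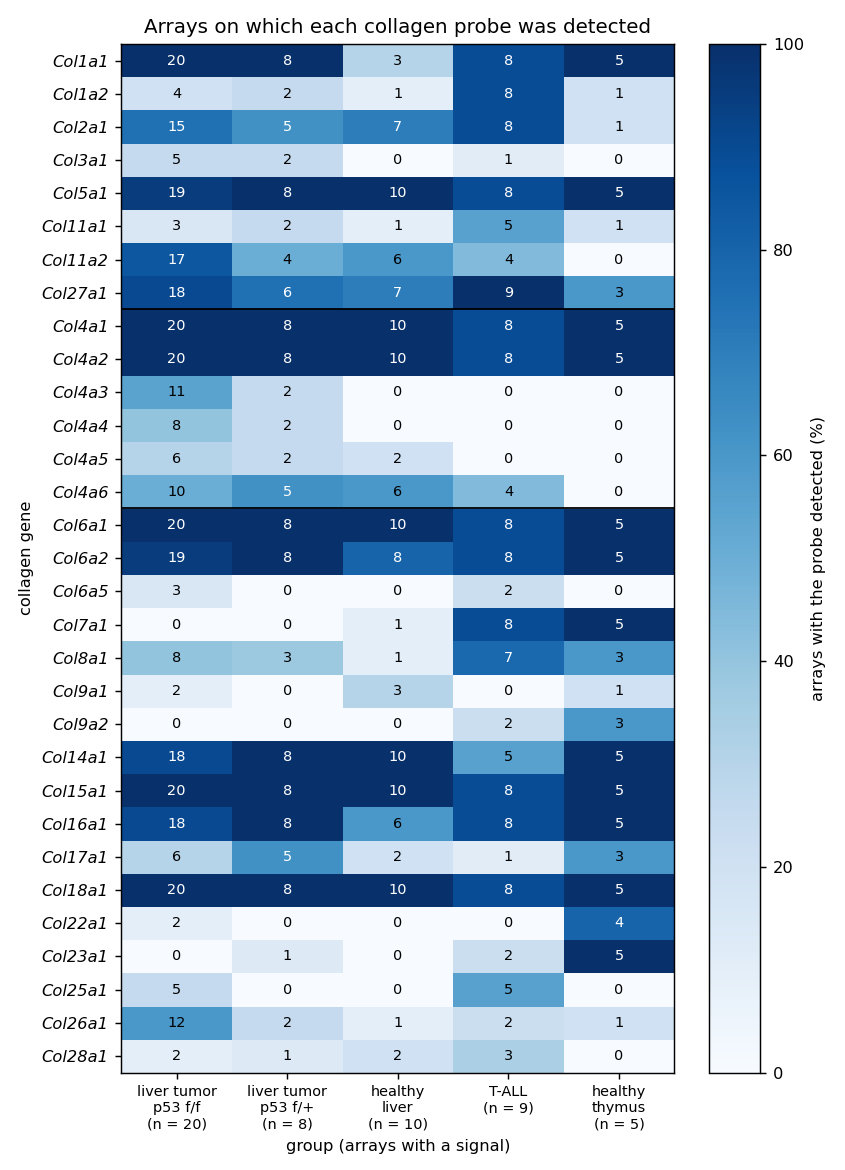
Number of arrays on which the probe of each of the 31 collagen genes that passed (rows) was detected in each of the 5 groups (columns), shaded by percent of the arrays of the group. Col1a1 was detected on 20 of 20 and 8 of 8 liver tumors but on 3 of 10 healthy livers, and Col23a1 on 5 of 5 thymi but on 2 of 9 T-ALLs.

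Col4a1 and Col4a2 encode the chains of the most widespread type IV collagen and are transcribed head to head. Their promoters are shown because both genes were among those higher in liver tumors and because the windows share bases. RefSeq windows (GRCm38.p6), from 250 bases before to 50 after each transcript start, lay at chr8:11312777-11313076 on the minus strand for Col4a1 and chr8:11312555-11312854 on the plus strand for Col4a2. Capitals mark the 78 bases (chr8:11312777-11312854) that both windows contain, and in this stretch each line is the reverse complement of the other.
Col4a1: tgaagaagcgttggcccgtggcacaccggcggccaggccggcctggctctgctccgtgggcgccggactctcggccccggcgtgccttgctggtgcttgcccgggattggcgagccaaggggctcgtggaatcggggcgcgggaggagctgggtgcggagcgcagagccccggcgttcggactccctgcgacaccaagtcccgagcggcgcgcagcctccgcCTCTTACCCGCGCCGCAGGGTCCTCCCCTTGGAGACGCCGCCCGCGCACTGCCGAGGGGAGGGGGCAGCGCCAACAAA
Col4a2: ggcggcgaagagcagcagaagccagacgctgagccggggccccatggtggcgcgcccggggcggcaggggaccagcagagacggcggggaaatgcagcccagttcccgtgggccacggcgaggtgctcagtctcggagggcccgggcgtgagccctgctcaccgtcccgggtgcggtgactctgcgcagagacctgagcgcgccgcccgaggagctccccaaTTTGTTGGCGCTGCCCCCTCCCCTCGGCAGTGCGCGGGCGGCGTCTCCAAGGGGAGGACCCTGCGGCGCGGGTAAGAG
The letters CCAAT, searched on both strands, occurred 1 time in each window, in neither wholly within the shared bases, and in 37.4% of 32851 RefSeq windows of 300 bases. GGGCGG occurred 1 time in the Col4a1 window and 3 times in that of Col4a2, with 1 match of each in the shared bases, and in 35.7% of all windows. TATAAA was found in neither window and in 13.6% of all windows. No match overlapped another. These matches describe the letters and say nothing about binding. Windows were found for 33 of the 41 genes, Col1a1 and Col22a1 not among them.

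The first comparison asked which collagens differed between liver tumors and healthy liver. Basement membrane Col4a1 and Col4a2 and fibrillar Col1a1 were higher in tumors, by 3.92- to 4.86-fold, and Col18a1 was lower. In all, 3 of the 31 passed collagens were called higher and 3 lower (limma, Benjamini-Hochberg adjusted p below 0.05 over all 12637 genes), against 13.2% of all genes called higher and 13% called lower. Neither count stands above that background. Tumors and livers overlapped for each of the 31, whereas 0.0791% of all genes had every tumor above every liver. The median log2 difference of the 31 was 0.05, with 19 above 0 and 12 below, beside -0.01 over all genes. Col3a1, Col4a3, Col4a4, Col4a5, Col6a5 and Col26a1, all above 0, had passed only through p53 f/f tumors. Their sign was partly built into the choice. The median is the value of Col26a1, so neither it nor the split supports anything by itself. By class, the median was 0.82 for the 6 basement membrane genes, -0.01 for the 8 fibrillar genes and 0.04 for the 17 others. The first of these medians lies between Col4a3 and Col4a4, which passed only through p53 f/f tumors, and supports nothing by itself.

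Among fibrillar collagens, Col1a1, which encodes the major chain of type I collagen, read from 6.08 (median 7.58) to 9.71 in p53 f/f tumors. It read from 6.57 (median 9.11) to 12.31 in p53 f/+ tumors and from 4.93 (median 5.33) to 9.23 in healthy livers. Its probe was detected in 28 of 28 tumors and 3 of 10 livers, and 27 tumors exceeded every liver but healthy liver 1, although only 6 exceeded that liver too. The difference was 2.28 ± 0.47 (log2, SE), or 4.86-fold, with an adjusted p of 0.000359 in limma. Without healthy liver 1 it was 2.66. On the deposited log2 values it was 0.82, or 1.77-fold, with an adjusted p of 0.0449 (6.49e-07 to 0.862 over the alternatives), so the size of the fold depended on the processing. No other fibrillar collagen was called. Col1a2, the second chain of type I collagen, differed by 0.01 ± 0.15 and was detected on 6 of 28 tumors and 1 of 10 livers, so its probe lay near the limit of detection in both. Col3a1, a fibrillar partner of type I, was detected on 7 of 28 tumors and on none of the livers, with means of 5.23 and 4.91 and an adjusted p of 0.126. Col27a1, a fibrillar collagen best known from cartilage, read from 5.29 (median 6.08) to 6.85 in p53 f/f tumors, from 5.53 (median 5.97) to 7.47 in p53 f/+ tumors and from 5.16 (median 6.55) to 8.05 in livers (-0.31 ± 0.26, adjusted p = 0.393), and the groups overlapped throughout. Col5a1, which nucleates type I fibrils, differed by 0.05 ± 0.39 (0.42 without healthy liver 1, not called), and Col2a1, Col11a1 and Col11a2, collagens of cartilage, by between -0.30 and -0.04, none past the threshold. The pooled Col5a1 value joins means of 7.82 in p53 f/f and 9.30 in p53 f/+ tumors, on either side of 8.20 in livers.

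Among basement membrane collagens, Col4a1 read from 10.69 (median 11.79) to 12.57 in p53 f/f tumors and from 10.17 (median 12.12) to 14.84 in p53 f/+ tumors. In healthy livers it read from 8.35 (median 9.41) to 12.87. All 28 tumors lay above healthy livers 2 to 10, whose highest value was 9.99, but only 2 lay above healthy liver 1. The difference was 2.25 ± 0.35, or 4.74-fold (adjusted p = 1.28e-05), and 2.61 without healthy liver 1. Col4a2 read from 9.56 (median 10.86) to 12.06 in p53 f/f tumors, from 9.25 (median 11.59) to 14.23 in p53 f/+ tumors and from 7.66 (median 8.87) to 12.37 in livers. It ran like Col4a1, with 25 of 28 tumors above every liver except healthy liver 1. Its difference was 1.97 ± 0.39, or 3.92-fold (adjusted p = 0.000252), and 2.34 without that liver.

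The 4 remaining type IV genes did not share this pattern. Col4a3 and Col4a4, chains of the specialised network known from kidney glomeruli, were detected on 13 and 10 of 28 tumors and on none of 10 livers. Col4a3 was high in a few tumors, with 8.72 in liver tumor 7, 8.25 in liver tumor 11 and 8.16 in liver tumor 9, and Col4a4 was highest in liver tumors 11 (8.09) and 7 (7.75). The mean of Col4a3 was 5.91 in tumors and 4.93 in livers, at least 1.17-fold higher (adjusted p = 0.0807), and that of Col4a4 was 5.58 and 4.94 (adjusted p = 0.0641), so neither passed. Col4a5, which pairs with both, ranged from 4.45 to 8.74 in tumors and from 4.52 to 8.41 in livers, the highest being healthy liver 1. Its difference was 0.33 ± 0.42, and 0.70 ± 0.38 without that liver, called in neither fit. Col4a6 was called lower, by 0.31 ± 0.11 (adjusted p = 0.0375), with tumors from 4.96 (median 5.45) to 5.74 in p53 f/f, 5.27 (median 5.52) to 6.09 in p53 f/+ and livers from 5.32 (median 5.70) to 6.66. These values overlap and lie close to the lowest detected signal, which averaged 5.53 on liver arrays, and leaving out any of 5 arrays ended the call.

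Of the other collagens, Col18a1, which encodes a basement membrane proteoglycan whose end fragment is endostatin and which hepatocytes express strongly, was the clearest decrease. It read from 11.75 (median 12.79) to 13.29 in p53 f/f tumors, from 12.66 (median 13.09) to 13.66 in p53 f/+ tumors and from 13.11 (median 13.49) to 14.43 in livers. In 27 of 28 tumors the value was below the liver median, and in 19 it was below every liver. Col18a1 fell by 0.74 ± 0.15 on the log2 scale, 1.67-fold lower (adjusted p = 0.00043), and a second Col18a1 probe by 1.05. Col28a1, of little known function, was called lower by 0.29 ± 0.11 (adjusted p = 0.0474) from a level near the detection limit: p53 f/f tumors read 4.91 (median 5.21) to 5.65, p53 f/+ tumors 4.73 (median 5.17) to 5.59 and livers 4.87 (median 5.46) to 6.43. Its call was lost in 25 of 38 fits that left out 1 array. Col16a1, a collagen that associates with fibrils, and Col15a1, a basement membrane relative of Col18a1, had positive differences of 1.02 and 0.82 that missed the threshold (adjusted p = 0.0719 and 0.0752). Col16a1 passed without healthy liver 1 (1.34, adjusted p = 0.00842, with 0.0719 on all arrays). Col6a1 and Col6a2, chains of the beaded-filament collagen, differed by 0.04 ± 0.48 and 0.33 ± 0.35 (0.56 and 0.69 without healthy liver 1, neither called), and Col14a1, a fibril-associated collagen, by -0.58 ± 0.38. Means in p53 f/f tumors, p53 f/+ tumors and livers were 7.94, 9.46 and 8.34 for Col6a1 and 7.49, 8.76 and 8.44 for Col14a1, so the genotypes lay on either side of liver. The 10 further genes of this class differed by between -0.35 and 0.19, with no call.

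**Figure D2:**
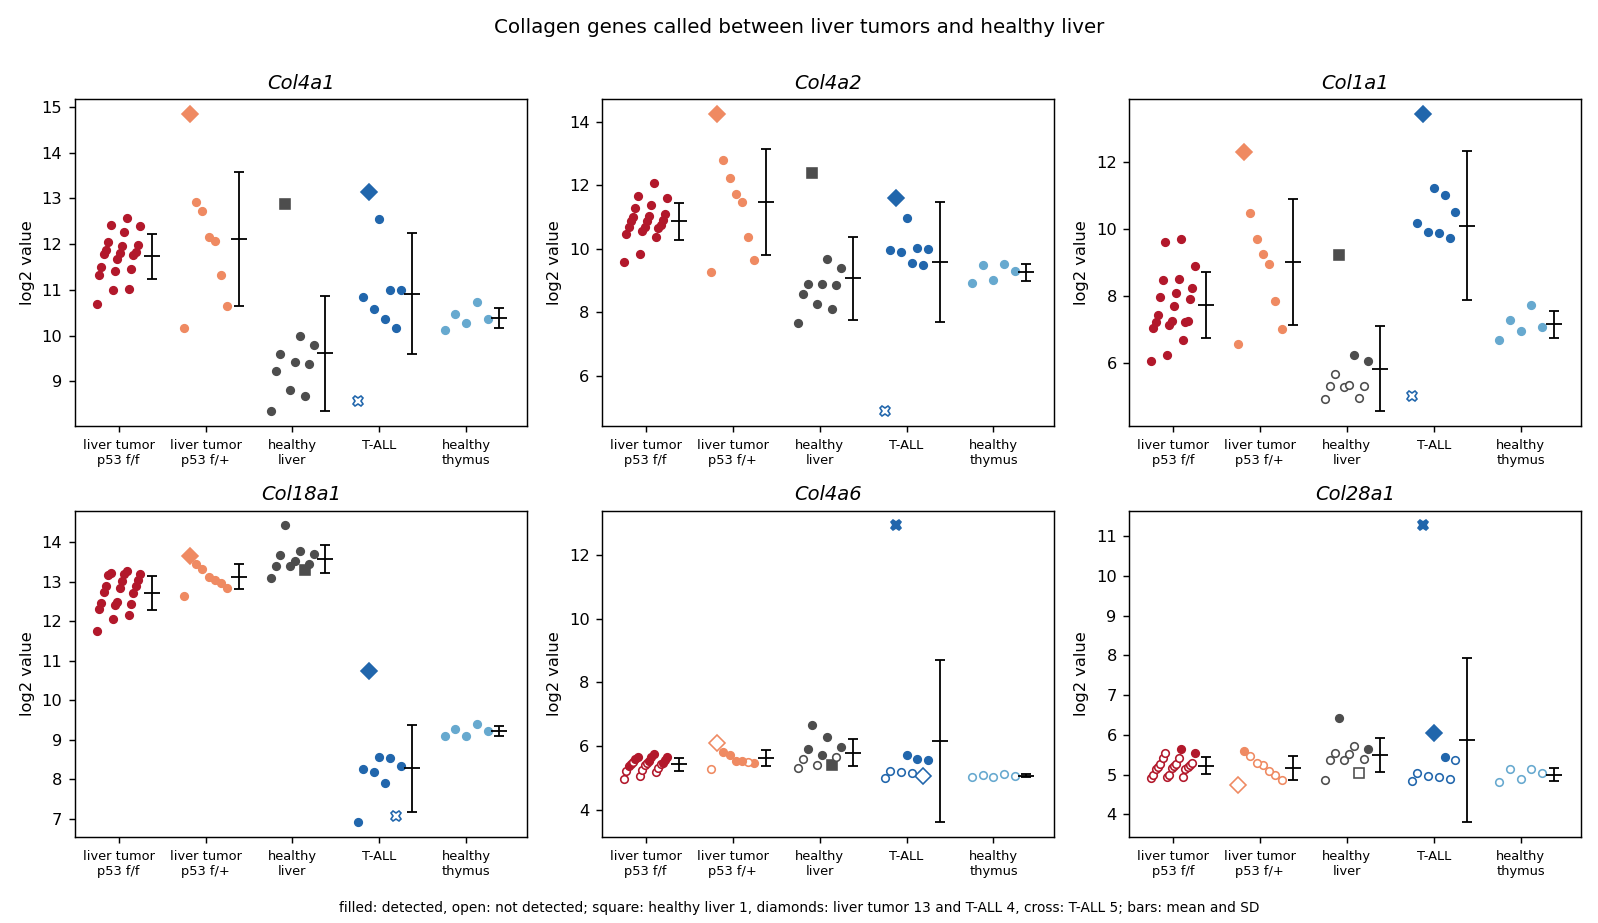
Log2 values of the collagens called between liver tumors and healthy livers, each point 1 array, in all 5 groups, with filled points detected and bars at the group mean ± SD. Tumor values of Col4a1 lie above livers 2 to 10, whose highest is 9.99, and healthy liver 1 (square) lies at 12.87.

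Healthy livers and tumors shared a single chip, G, which held 2 p53 f/+ tumors and healthy livers 1 to 3. On it the mean of Col4a1 was 12.12 in tumors and 9.89 in livers 2 and 3, that of Col4a2 was 11.59 and 9.54, that of Col1a1 was 9.73 and 5.96, and that of Col18a1 was 13.09 and 13.26. With healthy liver 1 included, tumors minus livers on chip G was 1.23 for Col4a1, 1.11 for Col4a2, 2.68 for Col1a1 and -0.18 for Col18a1. Over all chips these differences were 2.25, 1.97, 2.28 and -0.74. With chip as a fixed effect no collagen was called, and the differences were 0.75 for Col4a1, 0.51 for Col4a2, 2.00 for Col1a1 and -0.29 for Col18a1. In that fit chip G, healthy liver 1 included, is the only chip that links livers with tumors. With chip as a random block, 5 collagens were called.

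Genes that act on collagen were read beside the collagens themselves, where 13.2% of all genes were called higher and 13% lower. Of 18 passed genes for chain modification and folding, 3 were called higher and none lower: Crtap (0.72), a prolyl 3-hydroxylation partner, Colgalt1 (0.70), which adds galactose to hydroxylysine, and Plod3 (0.50), a lysyl hydroxylase. Of 7 passed processing and crosslinking genes, 2 were higher, Pcolce by 3.35 ± 0.48 (10.2-fold, adjusted p = 3.09e-06), the enhancer of procollagen C-proteinase, and Mep1b by 0.40. Ddr1, a receptor tyrosine kinase that binds collagen, was higher by 2.95 ± 0.49 (7.72-fold, adjusted p = 2.53e-05) and was 1 of 7 receptor genes called. Of 13 basement membrane partners of type IV collagen, 7 were called higher and 1 lower (median 1.24), where 13.2% and 13% of all genes were called. The laminin chain gene Lamc3 was higher by 3.65, the linker Nid1 by 2.80 and the collagen-binding Sparc by 2.38, while the laminin chain gene Lama1 was lower by 1.33. Of 12 proteins that decorate fibrils, 2 were higher, Sparc again and Thbs2 (1.44).

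Bulk liver mixes cell types, and here more cells of a type and more RNA per cell cannot be told apart. Several markers of collagen-producing and other cells differed between tumors and livers, where 13.2% of all genes were called higher and 13% lower. Of 13 stellate cell and fibroblast markers, 4 were called higher, led by Acta2 (1.94), Vim (1.63) and Cygb (1.05), and Lrat and Ngfr were lower by 1.22 and 1.06. The mean over these 13 ranged from 6.32 to 8.24 in p53 f/f tumors, 7.25 to 9.70 in p53 f/+ tumors and 6.61 to 7.51 in livers. Of 19 endothelial markers, 7 were higher, led by Emcn (1.97), and 1 was lower, with means of 7.37 to 8.88, 8.55 to 10.44 and 7.75 to 8.40. Of 13 macrophage markers, 7 were higher, led by Cd14 (3.98), and 1 lower, with means of 7.33 to 9.60, 8.52 to 9.71 and 6.70 to 8.90. Bile duct markers Sox9 (2.56) and Tspan8 (2.15) were the 2 of 5 called, and the mean of the 5 was 6.24 to 8.99, 6.15 to 10.14 and 5.63 to 9.41. Healthy liver 1 held the highest stellate cell and fibroblast, bile duct and macrophage means of its group and the highest mean of basement membrane partners (9.24), as well as its highest Col1a1, Col4a1 and Col4a2. Among 8 hepatocyte markers, Cyp2e1 was lower by 3.56 and none was higher. Every marker of the stellate, endothelial, bile duct and macrophage lists that passed was detected on at least 1 p53 f/f tumor. The part of these cells in the collagen differences was not tested.

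The next comparison asked whether collagens differed between p53 f/f and p53 f/+ liver tumors. No collagen was called by limma, against 0.087% of all genes called higher and 0.277% lower in p53 f/f (11 and 35 genes, but 283 and 28 with arrays scaled to a common median). At an unadjusted p below 0.05, 7 of 31 were lower in p53 f/f tumors and 0 higher, beside 7.7% and 6.59% of all genes. The genotypes overlapped for each collagen, and 0.00791% of all genes lay higher in p53 f/f with no overlap. The 7 were Col5a1 (-1.54 ± 0.46, adjusted p = 0.103), Col14a1 (-1.30 ± 0.45, 0.152), Col23a1 (-0.36 ± 0.12, 0.154), Col6a1 (-1.63 ± 0.57, 0.155), Col1a1 (-1.38 ± 0.55, 0.225), Col6a2 (-0.98 ± 0.41, 0.254) and Col18a1 (-0.42 ± 0.18, 0.27). With arrays scaled to a common median, these differences were -1.065 ± 0.46 (Col5a1), -0.87 ± 0.44 (Col14a1), -0.40 ± 0.12 (Col23a1), -1.19 ± 0.55 (Col6a1), -0.92 ± 0.54 (Col1a1), -0.57 ± 0.39 (Col6a2) and -0.09 ± 0.19 (Col18a1). All but that of Col23a1 were smaller, so the size of this pattern depended on the scaling. Among liver tumors the Col23a1 probe was detected only on liver tumor 28 (6.38). Its group means were 4.69 (p53 f/f) and 5.06 (p53 f/+), near background, so its place among the 7 carries no weight. Col4a1 and Col4a2 differed by -0.46 ± 0.42 and -0.71 ± 0.46. The median over the 31 collagens was -0.11, beside 0.01 over all genes. Part of the spread came from 1 array: liver tumor 13, dim and p53 f/+, held the highest tumor values of Col5a1 (11.93), Col6a1 (12.89) and Col6a2 (10.18). For these genes differences without it are not given here. Their medians in p53 f/f and p53 f/+ tumors were 7.95 and 9.07 (Col5a1), 7.88 and 9.64 (Col6a1) and 6.25 and 7.35 (Col6a2). Without liver tumor 13 the difference of Col1a1 was -0.85 and that of Col4a1 -0.02. Array weights called Col14a1, and leaving out healthy liver 1, which enters only the estimate of spread, called Col5a1. On the other lists, Itga11 (-1.82, adjusted p = 0.0349), a collagen-binding integrin of fibroblasts, and the endothelial genes Vwf (-2.15) and Cldn5 (-1.69) were lower in p53 f/f tumors. The median difference was -0.90 over the stellate list, -0.78 over the endothelial list and 0.46 over the hepatocyte list, and its part in the collagen values was not tested.

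**Figure D3:**
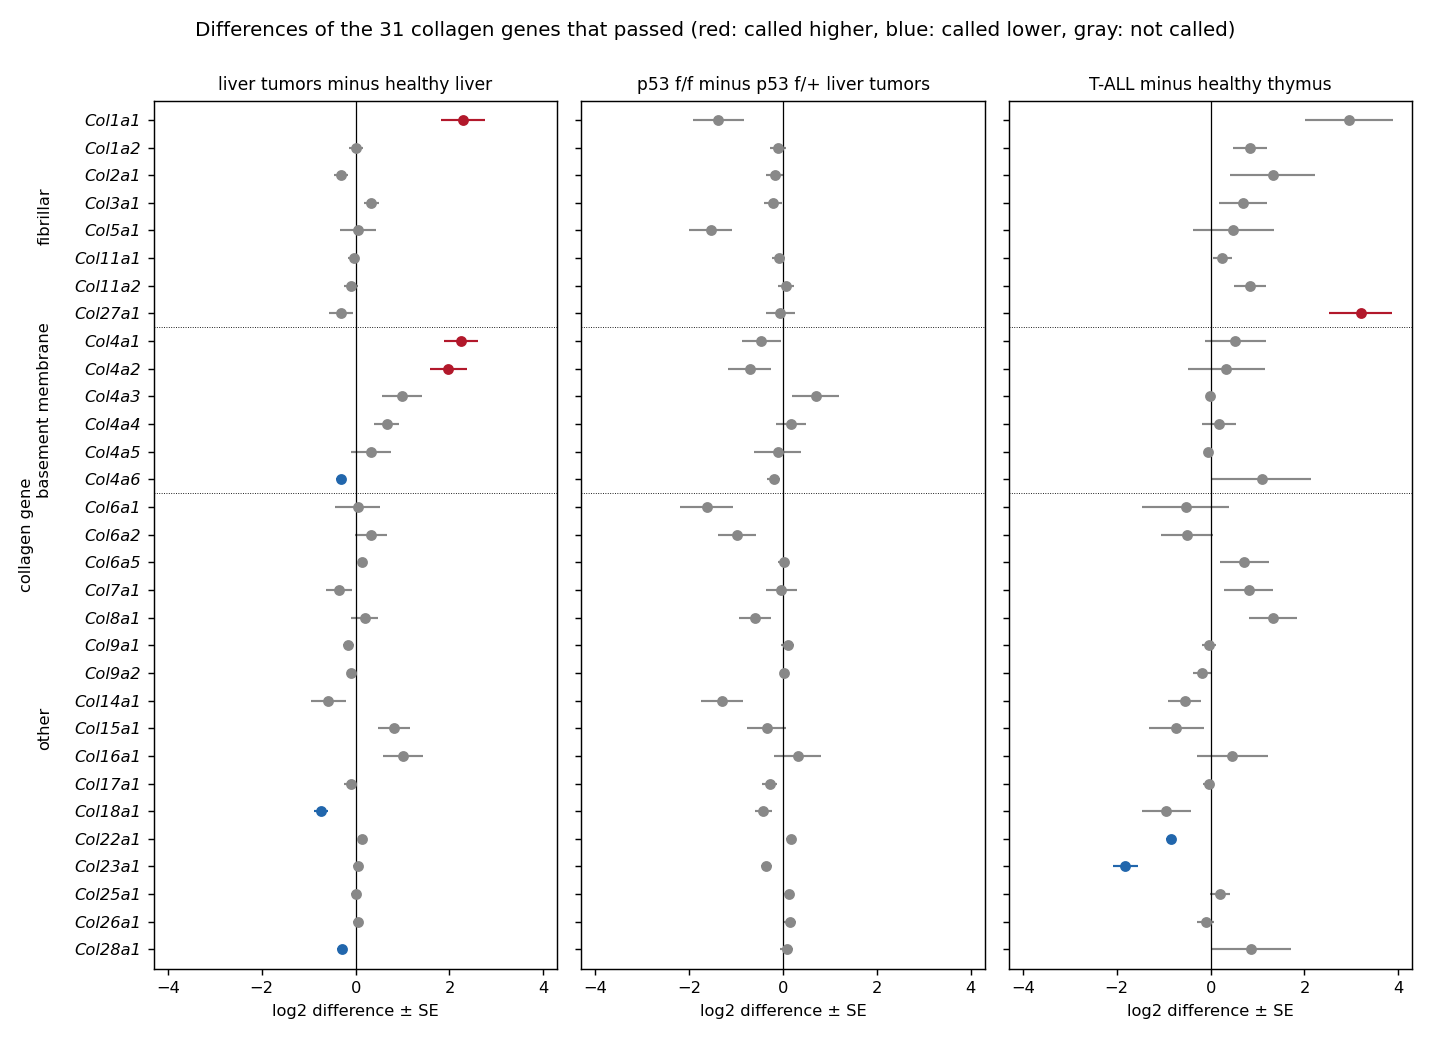
Log2 differences with their SE for the 31 collagens that passed, grouped by class, for liver tumors minus healthy liver, p53 f/f minus p53 f/+ tumors and T-ALL minus thymus, with called genes in color. Col4a1 (2.25), Col4a2 (1.97) and Col1a1 (2.28) are called higher in liver tumors, no gene is called by genotype, and Col27a1 (3.19) is called higher in T-ALL.

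The T-ALL comparison asked which collagens differed from healthy thymus, an organ in which epithelial cells and fibroblasts lie among the thymocytes. Fibrillar Col27a1 was higher in T-ALL by 9.15-fold, and the membrane-anchored Col23a1 and the junctional Col22a1 were lower. Col23a1 and Col22a1 had passed the detection rule only through thymus, so that their being lower in T-ALL was partly built into the choice and is a description. These were 1 of 31 collagens called higher and 2 lower, against 1.1% and 7.7% of all genes. The median over the 31 was 0.25, beside -0.14 over all genes. It was 0.84 for the 8 fibrillar, 0.25 for the 6 basement membrane and -0.10 for the 17 other collagens. The fibrillar median lies between Col1a2, detected on 1 of 5 thymi, and Col11a2, not detected on any thymus. A second Col11a2 probe differed by 0.16, so this median supports nothing by itself. T-ALLs and thymi lay on separate chips, so tissue state and chip cannot be told apart here.

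Col27a1 read 9.59, 7.98, 9.02, 8.79, 12.02, 7.66, 7.77, 8.61 and 6.40 in T-ALL 1 to 9 (median 8.61), and 5.77, 5.62, 5.15, 5.27 and 5.47 in thymus 1 to 5. All 9 T-ALLs exceeded every thymus, although the highest value came from the nearly blank T-ALL 5. Groups without overlap in this direction were found for 1.3% of all genes. The difference was 3.19 ± 0.67 (adjusted p = 0.00489), and 2.77 ± 0.43 without T-ALL 5, where the adjusted p was 0.000209 and, over the other alternatives, between 5.45e-07 and 0.119. It missed the threshold on the deposited log2 values (1.10, adjusted p = 0.119) and with chip as a random block (0.0963). A second probe of Col27a1 differed by 0.58. The other called genes are transmembrane or junctional collagens. Col23a1, a transmembrane collagen, read 4.67 to 6.15 in T-ALL (median 5.20, detected on 2 of 9) and 6.82, 7.23, 7.25, 7.01 and 6.89 in the thymi. There was no overlap, as for 9.27% of all genes in this direction, and Col23a1 was lower by 1.81 ± 0.27 on the log2 scale, or 3.52-fold (adjusted p = 0.000187). On the deposited log2 values the difference was -0.42, or 1.34-fold, so its size depended on the processing. Col22a1, a collagen of tissue junctions, was not detected on any T-ALL (mean 4.65) and was detected on 4 of 5 thymi, which read 5.49, 5.61, 5.66, 5.66 and 5.05 (adjusted p = 2.84e-05). Its groups did not overlap either, but the thymus level was itself too low to give a bound on the fold.

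The call for Col1a1 depended on T-ALL 5. It read 9.75, 10.18, 10.51, 13.44, 5.02, 11.03, 9.88, 9.92 and 11.24 in T-ALL 1 to 9 and 7.07, 7.75, 6.69, 7.30 and 6.97 in thymus 1 to 5. The 8 T-ALLs other than T-ALL 5, on which the probe was not detected, lay above every thymus. With T-ALL 5 the difference was 2.95 ± 0.94 and was not called (adjusted p = 0.0636). Without T-ALL 5 it was 3.59 ± 0.51, or 12.0-fold (adjusted p = 8.3e-05, between 2.29e-08 and 0.499 over the other alternatives). Leaving out that array raised the calls from 3 to 10, with Col1a1, Col1a2 (0.97), Col2a1 (0.61), Col11a2 (0.94) and Col27a1 among fibrillar genes, Col4a2 (0.92), and Col7a1 (1.16) and Col8a1 (1.52) higher, and Col22a1 and Col23a1 (-1.75) lower. The share of all genes called in that fit is not given here, so the 10 show nothing particular to collagens. Col7a1 forms the anchoring fibrils beneath epithelia and Col8a1 is a short-chain collagen of vessels. T-ALL 5 also held isolated extremes in the other direction, with 12.93 for Col4a6, 11.27 for Col28a1 and 12.36 for Col2a1, and the lowest signal detected on it corresponded to 10.89.

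The remaining collagens did not pass on all arrays. Col4a1 read 8.58 to 13.13 in T-ALL (median 10.85) and 10.12 to 10.72 in thymus, with a difference of 0.53 ± 0.65 (adjusted p = 0.705). Col4a2 differed by 0.34 ± 0.82, Col5a1 by 0.48 ± 0.86, Col6a1 by -0.53 ± 0.93, Col6a2 by -0.51 ± 0.55, Col15a1 by -0.73 ± 0.58 and Col18a1 by -0.94 ± 0.52. Without T-ALL 4 and T-ALL 5, 16 collagens were called, and the share of all genes called in that fit is not given here either. Col5a1 (0.62) and Col25a1 (0.42) were then also higher, and Col18a1 (-1.12), Col6a2 (-0.80), Col15a1 (-0.68) and Col14a1 (-0.68) were lower, none of which was called on all arrays. Second probes did not show these decreases on all arrays, with 0.06 for Col18a1, -0.04 for Col6a2 and 0.12 for Col14a1. Col15a1 had no second probe. T-ALL 4, a dim array, held the highest T-ALL values of Col1a1 (13.44), Col6a2 (11.03), Col11a2 (7.68) and Col18a1 (10.74).

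**Figure D4:**
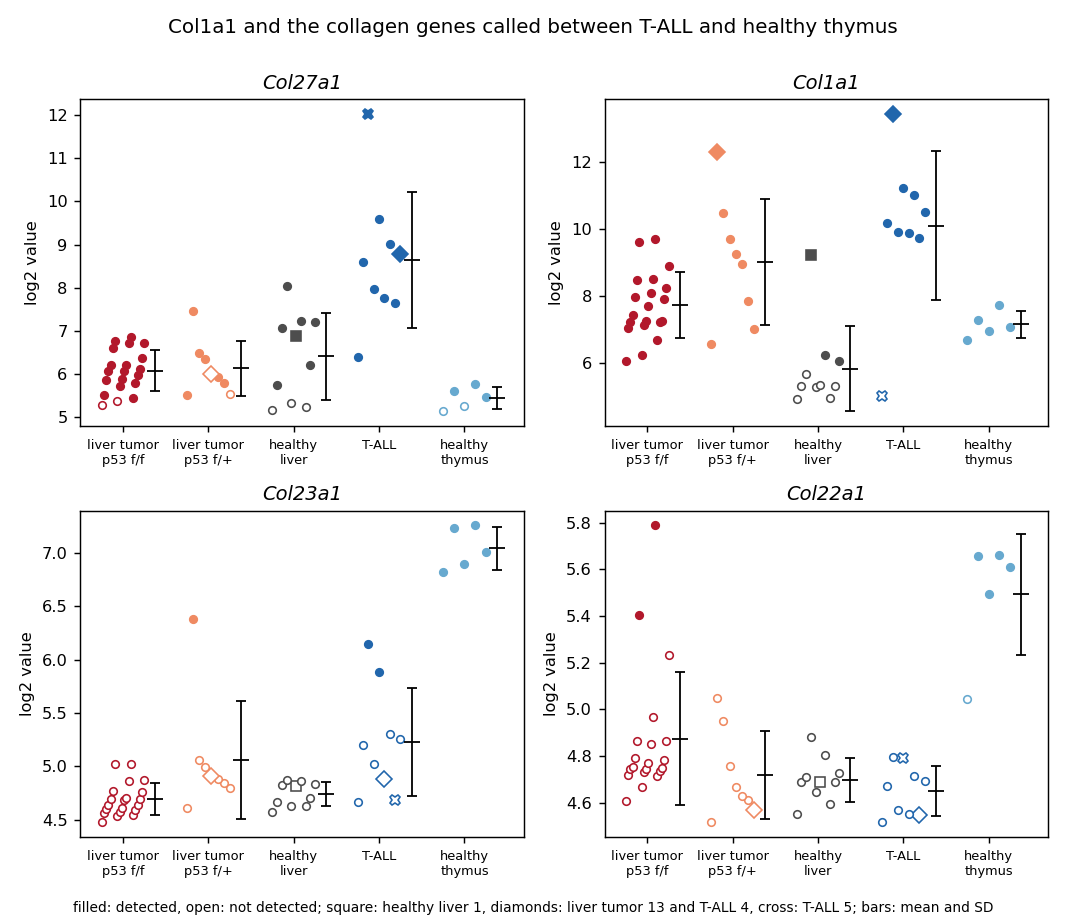
Log2 values of Col27a1, Col23a1, Col22a1 and Col1a1, each point 1 array, in all 5 groups, with filled points detected and bars at the group mean ± SD. For Col1a1 the T-ALLs lie between 9.75 and 13.44 apart from T-ALL 5 (cross) at 5.02, and the thymi between 6.69 and 7.75.

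Among genes that act on collagen, few were called in T-ALL. Colgalt2, a collagen galactosyltransferase, was called lower and not detected on any T-ALL (means of 4.85 and 5.35), and the laminin chain gene Lamb3 was lower by 2.74. No processing, receptor or fibril-decorating gene was called. The lists of cell markers differed among themselves, where 1.1% of all genes were called higher and 7.7% lower. Of 11 thymic epithelial markers, 7 were called lower, led by Krt14 (-5.68), Krt8 (-5.60) and Ccl25 (-5.40), and their mean ranged from 5.02 to 6.93 in T-ALL and from 8.62 to 8.90 in thymus. Psmb11 and Prss16, which define cortical epithelium, were not detected on any T-ALL. Of 13 stellate cell and fibroblast markers, Ngfr (-1.33) and Tagln (-0.65) were lower and none higher, with means of 5.20 to 9.37 in T-ALL and 7.50 to 7.88 in thymus. None of 19 endothelial markers was called, and their means were 6.33 to 8.74 and 7.41 to 7.67. In T-ALL the lowest stellate and endothelial means came from T-ALL 5 and the highest from T-ALL 4. The highest thymic epithelial mean in T-ALL was also that of T-ALL 5. Calls on all these lists without T-ALL 5 are not given here. The part of these cells in the collagen values was not tested.

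Whether a collagen changed differently in the 2 tumor types was tested as the change in liver tumors minus the change in T-ALL. Col23a1 (1.87 ± 0.24, adjusted p = 3.06e-08) and Col22a1 (0.97 ± 0.15, 3.18e-06) were called higher. Both had passed only through thymus, so this direction too was partly built into the choice, and nearly all liver arrays gave no detected signal for either. Col27a1 (-3.50 ± 0.61, 1.93e-05) and Col11a2 (-0.95 ± 0.33, 0.0363) were called lower. The Col11a2 probe was not detected on any thymus, and a second Col11a2 probe changed by only 0.02 in liver tumors and 0.16 in T-ALL. The Col11a2 call was lost in 8 of 52 fits that left out 1 array, among them that without T-ALL 4 (-0.70), and with 4 other settings, with an adjusted p between 0.00316 and 0.208 over the alternatives. These 2 and 2 of 31 compare with 13.8% and 5.44% of all genes. Col4a1 (1.74, adjusted p = 0.0657) and Col1a1 (-0.65, adjusted p = 0.674) did not pass, so no difference between the tissues was shown for them, and Col4a1 passed without healthy liver 1 (2.10, adjusted p = 0.0103, between 0.00017 and 0.543 over the alternatives). Liver and thymic arrays shared no chip.

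The 2 healthy organs started from different collagen levels, although organ and chip cannot be told apart. Healthy liver exceeded thymus in Col18a1 by 4.36 ± 0.34 (20.6-fold, adjusted p = 5.7e-16), in Col14a1 by 2.03, and in Col11a2 at least 1.25-fold. Thymus exceeded liver in the beaded-filament genes Col6a2 (liver minus thymus -2.26 on the log2 scale) and Col6a1 (-1.96), in Col15a1 (-1.92), Col7a1 (-1.22) and Col22a1, in Col9a2, which was not detected on any healthy liver (means of 4.94 and 5.36), and in Col23a1 at least 2.57-fold (adjusted p = 1.41e-14). The Col6a1 call was lost in 9 of 15 fits that left out 1 array, that of Col7a1 without healthy thymus 2 (-1.14) and that of Col9a2 without healthy thymus 5. Col9a2, Col22a1 and Col23a1 had passed only through thymus. These 3 and 7 of 31 compare with 19.6% and 28% of all genes. Liver and thymus did not overlap for 3 genes higher in liver (Col14a1, Col18a1 and Col4a6, the last not called) and 3 lower (Col15a1, Col22a1 and Col23a1), as was the case for 10.5% and 20.5% of all genes. Col1a1 (-1.32), Col4a1 (-0.77) and Col27a1 (0.96) did not pass. Over the 5 groups the median of Col1a1 was lowest in healthy liver (5.33), then thymus (7.07), p53 f/f tumors (7.58), p53 f/+ tumors (9.11) and T-ALL (10.18), and neighbours in this order overlapped, healthy liver with thymus only through healthy liver 1. For Col4a1 the order was healthy liver (9.41), thymus (10.35), T-ALL (10.85), p53 f/f tumors (11.79) and p53 f/+ tumors (12.12), with the same overlaps. For Col27a1 thymus was lowest (5.47), the liver groups lay at 5.97 to 6.55 and T-ALL was highest (8.61).

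Chains that share a molecule were compared across the 20 tumor-bearing animals, with tumors of an animal averaged, over 5 pairs. These values share array and normalization. Col4a1 and Col4a2 rose and fell together (Pearson r = 0.96, Spearman rho = 0.887, permutation p = 1e-05 for both, the smallest the 100000 permutations can give, adjusted p = 2.5e-05 and 5e-05). Without the 2 animals farthest from the median of Col4a1, r was 0.889, and within the 15 p53 f/f animals 0.869. Col6a1 and Col6a2 gave r = 0.942 and rho = 0.809 (adjusted permutation p = 2.5e-05 and 8.33e-05), 0.797 without the 2 farthest animals and 0.697 within p53 f/f. Col1a1 and Col4a1, of different collagen types, gave r = 0.868 and rho = 0.798 (adjusted permutation p = 3.33e-05 and 8.33e-05), 0.716 without the 2 and 0.66 within p53 f/f. The chains of type I collagen behaved otherwise. For Col1a1 and Col1a2, r was 0.616 (permutation p = 0.0212, adjusted 0.0264) but rho was 0.182 (permutation p = 0.44, adjusted 0.44). Without the 2 farthest animals r was 0.161, so the relation rested on those animals, and the Col1a2 probe was at its detection limit in most tumors. Col1a1 and Col27a1 gave r = 0.182 (permutation p = 0.446, adjusted 0.446) and rho = 0.341 (permutation p = 0.14, adjusted 0.175), 0.279 without the 2 and 0.156 within p53 f/f. Too few p53 f/+ animals (5) were present for a value of their own.

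**Figure D5:**
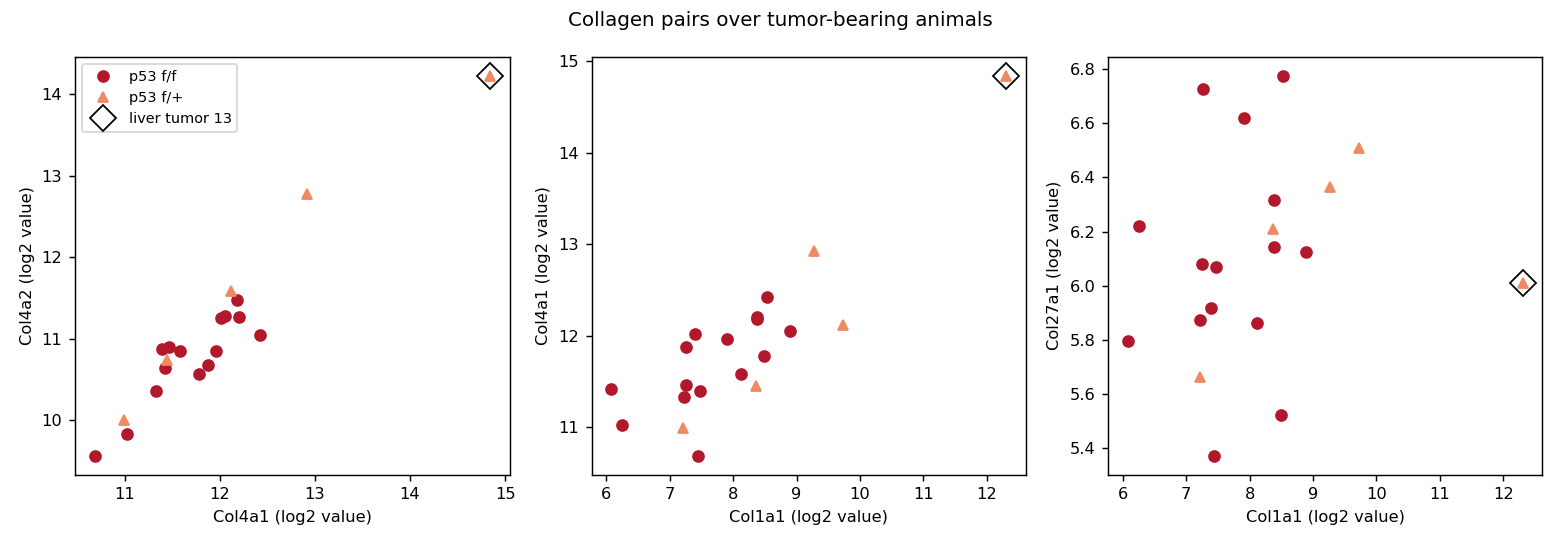
Log2 values of 3 collagen pairs in 20 tumor-bearing animals, each point 1 animal (tumors averaged), with the p53 genotypes marked. Col4a1 and Col4a2 lie along a line (r = 0.96), Col1a1 and Col4a1 follow more loosely (r = 0.868), and Col1a1 and Col27a1 do not line up (r = 0.182). The animal of liver tumor 13 is outlined.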

How the data were processed

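Arrays were grouped by the labels into p53 f/f and p53 f/+ liver tumors, healthy livers, T-ALLs and healthy thymi. The authors deposited a table of mean bead intensity per probe, with background already subtracted since values below 0 occur, and beside it a detection score, a fraction from 0 to 1 that is the complement of the detection p-value (deposited by the authors, software not stated). They also deposited log2 values, normalized separately for liver and thymus, whose exact steps are not given in the sources used here beyond limma, named without a version in the submitters' processing notes. The 2 columns of 1 array that no label names were not used.

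The deposited intensity was background corrected from the detection p-values (nec, offset 16) and quantile normalized over 52 arrays in limma 3.58.1 (statmod 1.5.0, R 4.3.3). Genes with a detection score over 0.95 on at least 3 arrays of any group were kept, with the probe of highest mean intensity, which left 12637 genes. Platform annotation named 34885 of 45281 probes with 1 symbol, 18 with several and none of the other 10378. Linear models with robust, trended moderation were fitted to the 38 liver arrays and to all 52 arrays with animal as a random block (correlation 0.186 and 0.50), and to the 14 thymic arrays without one. Tumor genotypes were weighted by number. Tests were two-sided, with Benjamini-Hochberg adjustment over all genes at 0.05. Where a probe was not detected on any array of a group, a fold is given only as a lower bound and left out where that was not above 1, against the higher of its own value and the lowest detected signal on each array. Relations used 100000 permutations in scipy 1.17.1 (Python 3.11.15). The model scripts were tested on simulated data. The number of arrays limits the precision, and the p-values of the linear models set a group difference against the spread between these samples.

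The collagens, the lists of other genes and the tests were chosen with earlier results of these data known. Collagens called in a comparison are named, with Col1a1, Col4a1, Col27a1 and those of largest called change given in full, and up to 3 called genes of each other list. Other scalings, offsets, filters, probe rules, array weights, chip terms and left-out arrays were tried. Left-out arrays were removed after normalization with the genes kept, and alternatives used the block correlation of the fits above, except that with chip as a random block it was estimated anew.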

Additional observations from a re-analysis of the deposited data

Results flagged for a closer look

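In groups of 4 to 10 arrays, the values of the 16 collagens called in at least 1 comparison were searched for a highest or lowest array whose gap to the next exceeded Dixon's critical value, which chance does in about 1 of 20 sets. Of 64 sets, 20 did so. The sets share arrays and the 16 genes were chosen from these values, so the 20 cannot be set against that rate. Healthy liver 1 accounted for 7, as the highest liver for Col1a1 (9.23), Col4a1 (12.87), Col4a2 (12.37), Col6a1 (12.99), Col6a2 (9.57) and Col7a1 (9.59) and the lowest for Col14a1 (6.96). T-ALL 5, the nearly blank array, accounted for 6: Col1a1 (5.02), Col4a2 (4.88), Col6a1 (4.74) and Col7a1 (4.64) were far below the other T-ALLs and Col28a1 (11.27) and Col4a6 (12.93) far above. T-ALL 4, a dim array, stood high for Col6a2 (11.03), Col11a2 (7.68) and Col18a1 (10.74). The other 4 arrays were healthy liver 5 for Col18a1 (14.43), liver tumor 13 for Col6a2 (10.18), liver tumor 28 for Col23a1 (6.38) and healthy thymus 5 for Col22a1 (5.05).

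The change in liver tumors minus the change in T-ALL, tested directly in limma, passed for 4 collagens: Col23a1 (1.87), Col22a1 (0.97), Col27a1 (-3.50) and Col11a2 (-0.95).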

How the results depend on the processing

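With 1 array left out in turn, the number of collagens called ranged from 4 to 7 for liver tumors against healthy liver (6 on all arrays), from 0 to 0 by p53 genotype, from 3 to 10 for T-ALL against thymus (3 on all arrays; 5 without T-ALL 4 and 10 without T-ALL 5), from 3 to 8 for the difference between the 2 changes (4 on all arrays; 8 without T-ALL 5) and from 8 to 10 between the healthy organs. Array weights gave 10, 1, 17, 15 and 16 calls in these 5 comparisons. Calls over all genes are not given here for array weights or left-out arrays, so these counts show nothing particular to collagens. Scaling to a common median gave 8 for T-ALL and 10 for the difference between the changes. It moved the median of all genes from -0.01 to 0.18 in liver tumors, from 0.01 to 0.24 by genotype, from -0.14 to -0.45 in T-ALL, from 0.19 to 0.73 for the difference between the changes and from -0.12 to -0.49 between the organs, and in liver tumors it turned 1666 higher and 1638 lower genes into 2802 and 506, by genotype 11 and 35 into 283 and 28, for the difference between the changes 1742 and 688 into 3264 and 346, and between the organs 2471 and 3543 into 1736 and 4888. Under it Col4a6 and Col28a1 were no longer called and Col15a1 and Col16a1 were called higher. Chip as a fixed effect left 0 calls in liver tumors, with Col28a1 at 0.31 in place of -0.29. Leaving out T-ALL 4 and T-ALL 5 gave 16 calls in T-ALL and 9 for the difference between the changes. Chosen after seeing the data, leaving out T-ALL 5 and T-ALL 7 gave 9 calls in T-ALL, leaving out T-ALL 5 before normalization gave 10, leaving out healthy liver 1 and T-ALL 5 gave 10 for the difference between the changes, and leaving out healthy liver 1 gave 1 by genotype. The cause was not tested. Sample numbers shared between groups did not pair the arrays (correlations from -0.08 to 0.15 in liver, where 3 of 10 fitted best with their own number, and from -0.07 to 0.13 in thymus, 2 of 5), and with a replicate block 7, 3, 3 and 12 collagens were called for liver tumors, T-ALL, the difference between the changes and the healthy organs. No paired analysis was possible by p53 genotype because those groups share no numbers. Of the 31 collagens, 11 passed in a single group, where signal over background limits what can be seen.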
